A study of Mus musculus with 2 samples.

Results

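The insulin-like growth factor (IGF) system was followed through 10 genes of 19505 that the arrays' probes name in RefSeq: the ligands Igf1 and Igf2, the receptors Igf1r and Igf2r, and the binding proteins Igfbp2 to Igfbp7. Members were all gene spots of the array design whose gene name is one of these 10 symbols, on both arrays. They numbered 17 probes of 41174 gene probes, printed as 35 spots of 45018, and each probe is described on its own. All 17 probes matched the same gene in the RefSeq gene table. Expression was measured in mice on the C57BL/6N background that lack PKGI, a protein kinase that cGMP activates and Prkg1 encodes (KO), and in wild type littermates (WT). A first 2-colour array set untreated brown adipose tissue of a KO mouse, in Cy5, against that of a WT mouse, in Cy3. A second array set brown adipocytes, differentiated in culture from KO and WT brown fat precursors, against each other with the dyes reversed, so that WT was in Cy5. Each comparison rests on a single array (n = 1) without a dye exchange. The genotypes therefore could not be tested against each other, and the values hold for these 4 RNA samples alone.

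IGF-1 and IGF-2 are small secreted growth factors related to insulin. Both act through the IGF-1 receptor, a tyrosine kinase, while the IGF-2 receptor carries IGF-2 to lysosomes for breakdown and also sorts lysosomal enzymes. In body fluids the ligands are held by the binding proteins, which can store them, carry them or keep them from the receptor and which are cut by specific proteases. In brown fat, IGF-1 and insulin are known to drive growth and differentiation of precursors.

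The kinase itself came first as a check of the labels. Of the 4 Prkg1 probes, A_51_P440210 had log2 ratios of KO over WT of -1.29 in tissue and -0.94 in culture, and A_52_P553069 had -1.22 and -2.31. Both probes were thus lower in the KO channel on both arrays. A_52_P660707 was well above background in both KO channels but in neither WT channel, with log2 ratios of 0.01 in tissue and 0.17 in culture. This probe therefore did not show the lower KO signal. A_52_P564186 was well above background in no channel. Other genes also separated the channels. In tissue the Xist probe A_51_P145453 read 42870 in KO and 203 in WT, and Eif2s3y, a gene of the Y chromosome, read 80.7 in KO, not well above background, and 6831 in WT. In culture that Xist probe read 115 in KO and 4390 in WT, whereas Eif2s3y read 4961 and 5380. Xist is made from the inactive X chromosome of females. KO and WT therefore differed in sex-linked transcripts on both arrays. For the members and all other genes below, this difference and genotype cannot be told apart.

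Markers of cell types were read in the same samples. To weigh their counts, 2.49% of all 15115 kept genes in culture passed 2-fold upward in KO and 4.17% downward. The shares in tissue were 0.8% upward and 2.44% downward, out of 15616 kept genes. In culture all 12 mature adipocyte markers were at least 2-fold lower in KO, with a median log2 ratio of -3.93 and a range from -5.67 to -2.15. The summed normalized intensity of their 18 probes was 35930 in KO and 726530 in WT, and Lep was not well above background in KO. Of 10 brown adipocyte markers 7 were lower in KO culture (median -1.66, range -3.78 to 0.83), and 2 were above 0. Ucp1, the uncoupling protein of brown fat, had the lowest value, at -3.78. The summed level of this list was 13373 in KO and 22171 in WT, with Elovl3 and Otop1 not well above background in KO. Macrophage markers were lower for 9 of 12 (median -1.65), with sums of 90610 and 448040. Smooth muscle markers were higher for 6 of 8 (median 1.63), with sums of 403380 and 106770, and none of 11 preadipocyte and fibroblast markers passed 2-fold (median 0.12). In KO tissue all 12 skeletal muscle markers were lower (median -2.79), with sums of 77911 in KO and 486760 in WT, whereas 1 of 11 kept mature adipocyte markers was higher and none lower (median 0.03). That adipocyte count became 5 higher without loess (median 0.83) and 3 lower with spike centring (median -0.81), which are other scalings of the array. The brown markers of tissue gave 1 higher and 4 lower of 10 (median -0.43, range -2.14 to 1.01), with Ucp1 at -1.84. Without loess 2 were higher and 1 lower (median 0.27), with Ucp1 just short of 2-fold lower. With outlier spots in the background fit 0 were higher and 1 lower (median -0.13). Here and below, that setting kept flagged spots in both the background correction and the loess fit and left them out afterwards. The remaining lists had no gene past 2-fold in tissue, apart from 2 of 8 smooth muscle markers that were lower. These were Tpm2 (-2.02) and Des (-1.45), and the rest of that list lay between -0.74 and 0.21. Spike centring, however, put up to 9 members of such a list (endothelial) past 2-fold. In culture the remaining lists had 1 skeletal muscle marker, 1 endothelial marker and 2 of 3 kept mesothelial markers higher in KO. These 2 were Krt19 (1.15) and Msln (at least 2.91-fold), whereas the third, Lrrn4, had -0.51 with KO not well above background. The other 3 of the 6 mesothelial markers were well above background in neither channel. The part of these cell types in the member values was not tested, and in such bulk samples fewer cells of a type and less RNA per cell cannot be told apart.

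Log2 ratios given from here on are KO over WT after background correction and loess, and 1 unit is a 2-fold difference. Levels are normalized intensities of a channel on a linear scale, which include an offset of 50 and are compared only within a probe. Probes well above background in neither channel of an array were left out there. The pooled SD of the log2 ratio between repeated spots of a probe was 0.098 in tissue (185 probes) and 0.090 in culture (195 probes), which is technical error within an array and holds nothing of the spread between mice. No member spot was saturated in either dye.

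Of the 17 member probes 16 were kept in tissue, and 0 were higher and 0 lower in KO by 2-fold or more. Among all 30011 kept probes of that array, 0.926% were higher and 2.44% lower. In culture all 17 were kept, 2 were higher and 1 was lower, where 2.07% of all 29161 kept probes were higher and 3.89% lower. The median log2 ratio of the members was -0.10 in tissue, beside 0.02 for all kept probes, and 0.34 in culture, beside -0.02. The values ran from -0.94 to 0.80 in tissue and from -2.25 to 1.75 in culture. Both extremes in culture and the lowest value in tissue belonged to the neighbouring genes Igfbp2 and Igfbp5. The split of all probes depended on the scaling. In tissue 278 were higher and 732 lower, but 3108 and 1868 with the scanner software's own ratio, 1542 and 832 without loess, 76 and 116 with outlier spots in the background fit, and 25 and 8496 when centred on spiked-in controls. In culture it was 605 and 1135, but 287 and 2401 without loess and 325 and 1728 with spike centring. Dropping loess moved the median of all kept probes to 0.25 in tissue and -0.26 in culture, and spike centring moved it to -0.83 and -0.24.

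**Figure D1:**
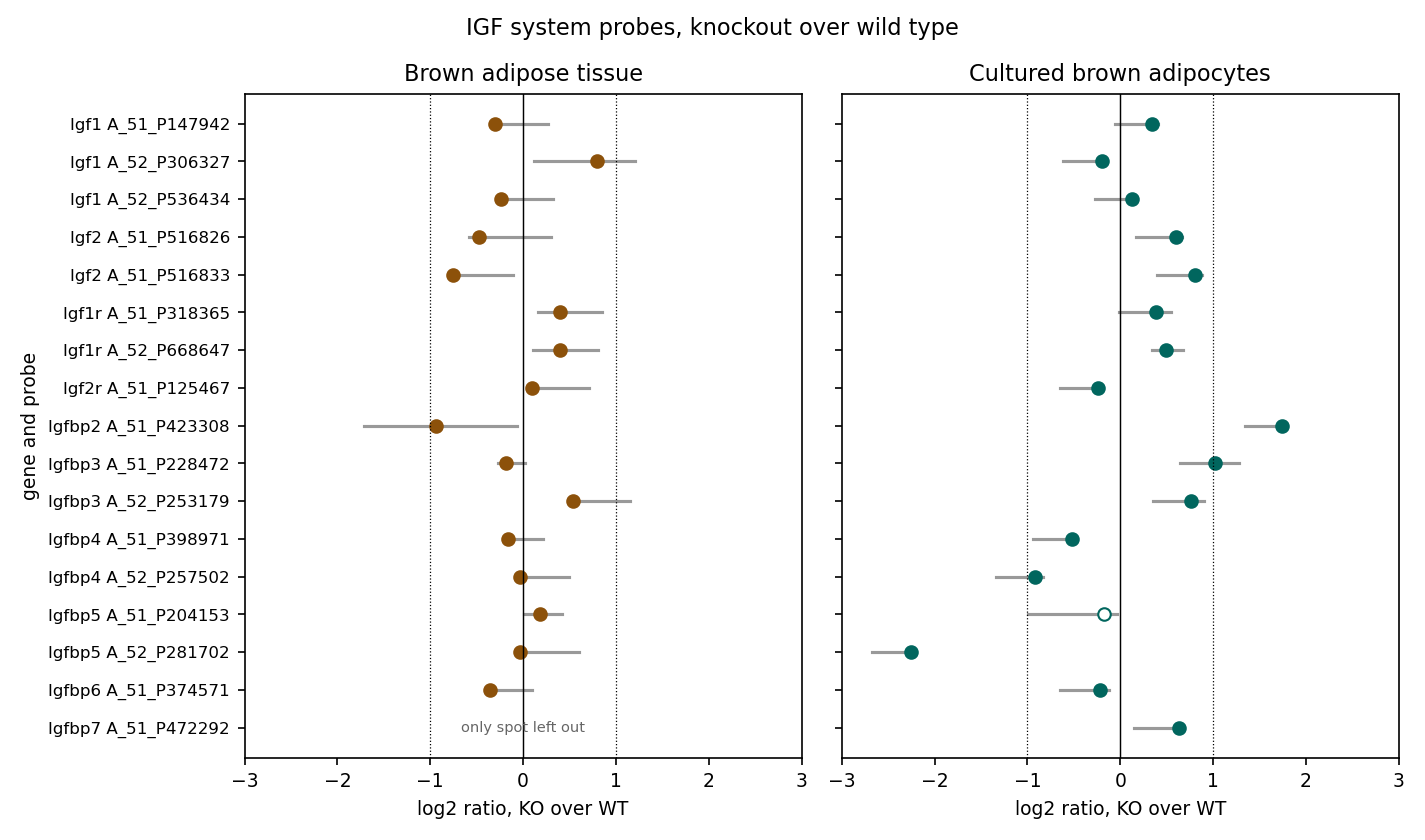
Log2 ratio of KO over WT (x axis) for each of the 17 member probes (y axis) in brown adipose tissue (left) and cultured brown adipocytes (right); dots are the reported values, the open dot has KO not well above background, grey lines span the alternatives in processing other than spike centring, and dotted lines mark 2-fold. In tissue no dot lies past 2-fold, and in culture 2 lie above (Igfbp2 and a probe of Igfbp3) and 1 below (a probe of Igfbp5), while the grey lines of Igf1, Igf2 and others cross 0.

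The ligand Igf1 is the growth hormone dependent factor of blood and tissues. Its 3 probes lie on chromosome 10 in the coordinates of the files, for which the sources used here name no genome build. A_51_P147942 (NM_010512, chr10:87488982-87489041) was spotted 10 times on each array. In tissue it read 3836 in KO and 4720 in WT, a log2 ratio of -0.30 ± 0.048 (SD between spots, n = 10 spots), with every spot between -0.36 and -0.23. In culture it read 5292 in KO and 4172 in WT, a log2 ratio of 0.34 ± 0.059 (SD between spots, n = 9 spots), with every spot between 0.24 and 0.42. These spot ranges hold technical error alone, and without loess both signs turned, to 0.27 in tissue and -0.06 in culture. A_52_P536434 (NM_184052, chr10:87471884-87471943), 17.1 kb away, read 3349 in KO and 3949 in WT tissue (-0.24), and 4929 and 4516 in culture (0.13), and these signs turned too without loess (0.32 and -0.28). The third probe ran the other way. A_52_P306327 (AK050118, chr10:87420848-87420907), 51.0 and 68.1 kb from the others, read 543 in KO and 313 in WT tissue and 759 and 870 in culture, log2 ratios of 0.80 and -0.20. Its tissue value was 0.12 with outlier spots in the background fit and 1.21 with the scanner software's ratio. Probes of Igf1 therefore disagreed in sign on both arrays, but not without loess, where A_52_P306327 had 1.11 in tissue and -0.61 in culture, so that all 3 were above 0 in tissue and below it in culture.

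Igf2 is the fetal growth factor that is transcribed from the paternal allele next to the noncoding RNA H19. A_51_P516826 (NM_010514, chr7:139078075-139078135, minus strand) read 45004 in KO and 62533 in WT tissue, a log2 ratio of -0.47 ± 0.060 (SD between spots, n = 8 spots). In culture it read 21403 in KO and 14134 in WT, a log2 ratio of 0.60 ± 0.035 (SD between spots, n = 8 spots). All tissue spots lay between -0.53 and -0.37 and all culture spots between 0.53 and 0.64. The second probe, A_51_P516833 (chr7:139078490-139078549), read 11878 in KO and 20065 in WT tissue (-0.76) and 6909 and 3968 in culture (0.80). Both Igf2 probes were thus lower in KO tissue and higher in KO culture, except that without loess the first turned to 0.30 in tissue while the second stayed at -0.11. Both were also dimmer in culture than in tissue, 3.05-fold and 2.95-fold for the mean log2 level of the channels of each array. On both probes the order from bright to dim was WT tissue, KO tissue, KO culture and WT culture.

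**Figure D2:**
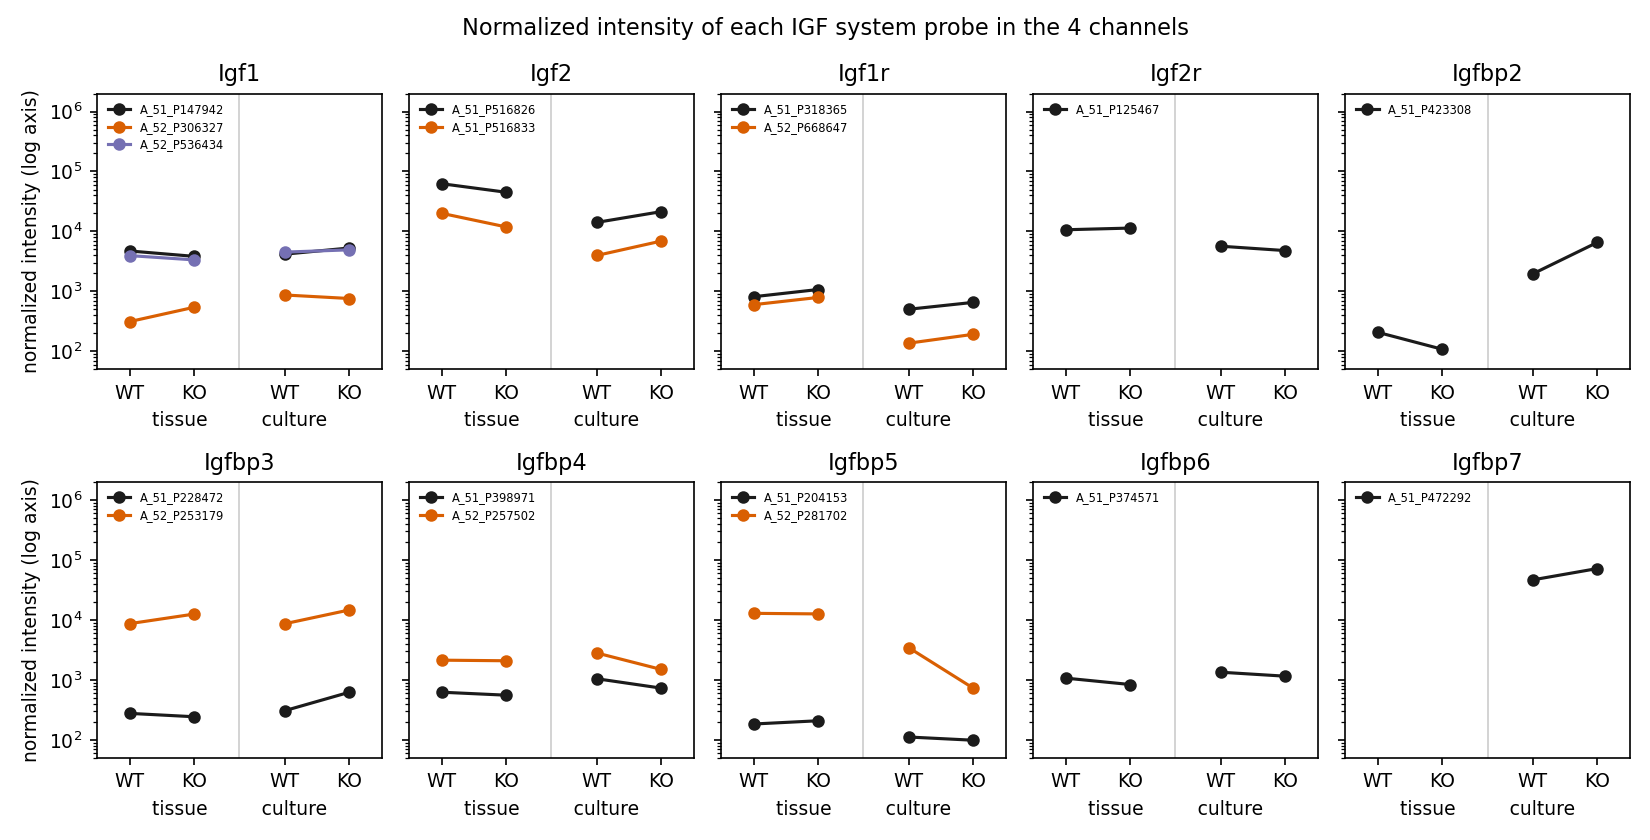
Normalized intensity on a log axis of each member probe in the 4 channels, with WT and KO tissue at the left of each panel and WT and KO culture at the right; lines join the channels of an array, colours are probes, and heights of different probes are not comparable. Igfbp2 goes from 208 and 108 in tissue to 1958 and 6575 in culture, Igfbp5 A_52_P281702 from 12877 and 12596 to 3443 and 724, and Igfbp7 has no tissue value because its only spot was left out.

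Igf1r encodes the signalling receptor of both ligands. A_51_P318365 (NM_010513, chr7:64082649-64082708) read 1074 in KO and 813 in WT tissue and 655 and 503 in culture. Its log2 ratios were 0.40 and 0.38, or 1.32-fold and 1.30-fold. A_52_P668647 (AK044980, chr7:64043608-64043667), 39.0 kb away, read 792 and 599 in tissue and 192 and 137 in culture, log2 ratios of 0.40 and 0.49. Igf1r was thus slightly brighter in KO on both probes and both arrays, except with spike centring in tissue (-0.44 on both) and without loess in culture (-0.02 on the first). RefSeq places 2 further probes in this gene that the files call by clone names. A_51_P474538 (A330103N21Rik) had 0.65 in tissue and 0.83 in culture, and A_52_P634111 (D930020L01) had 0.01 and 0.29. Against tissue, culture was 1.63-fold dimmer on the first member probe and 4.25-fold on the second, so the probes differed in the size of that step.

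Igf2r encodes the clearance receptor of IGF-2. Its only probe, A_51_P125467 (NM_010515, chr17:11399590-11399648), read 11370 in KO and 10658 in WT tissue and 4787 and 5665 in culture. The log2 ratios were 0.09 and -0.24, and the tissue value was below the pooled spot SD. In tissue it was 0.71 at its highest and -0.75 with spike centring, and in culture it stayed between -0.64 and -0.24. Culture was 2.11-fold dimmer than tissue.

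Igfbp2, a secreted binding protein that precursors of fat cells make and that mature fat makes less of, had the widest swing of the members. A_51_P423308 (NM_008342, chr1:73093964-73094023) read 108 in KO and 208 in WT tissue, and 6575 in KO and 1958 in WT culture. KO was the dimmer sample in tissue, 1.92-fold at a log2 ratio of -0.94, and the brighter one in culture, 3.36-fold at 1.75. The culture value stayed between 1.34 and 1.77 under all alternatives. The tissue value was far less fixed, at -1.71 with the scanner software's ratio and -0.07 with outlier spots in the background fit. The mean log2 level of the channels was 23.9-fold higher in culture, with a single tissue array set against a single culture array. Both tissue channels were well above background but dim. On the tissue array Adam12 A_52_P290457 at 84.6 in KO and Jak2 A_52_P309376 at 118 in WT were not well above background. At such levels the added offset is a large part of the intensity, so the tissue ratio and the 23.9-fold step both depend on it. All 12 mature adipocyte markers were lower in the same KO culture, and their part in the Igfbp2 value was not tested.

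Igfbp5, a binding protein that is held in the extracellular matrix, was the only member at least 2-fold lower. A_52_P281702 (NM_010518, chr1:73100116-73100175, minus strand) read 12596 in KO and 12877 in WT tissue, a log2 ratio of -0.03. In culture it read 724 in KO and 3443 in WT, 4.76-fold lower in KO at a log2 ratio of -2.25, and between -2.67 and -2.25 under all alternatives. The tissue value was 0.60 without loess and -0.88 with spike centring, so its sign is not settled. Both culture samples lay below the tissue samples, 8.07-fold on average. The other probe, A_51_P204153 (chr1:73102653-73102712), read 208 and 183 in tissue (0.18). In culture it read 98.3 in KO, not well above background, and 111 in WT, at least 1.13-fold lower in KO. That bound holds for the loess scaling alone, since the log2 ratio ran from -0.99 to -0.03 over the alternatives. The probes lie 2.54 kb apart and share the sign in culture but not the size.

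Igfbp2 and Igfbp5 are neighbours on chromosome 1, with no protein-coding gene between them in RefSeq and the Igfbp2 probe 6.15 and 8.69 kb from those of Igfbp5. They lie on opposite strands. In culture they were past 2-fold in opposite directions, while the flanking genes Rpl37a (-0.27) and Tnp1 (0.09) were not. In tissue Rpl37a had 1.37 and Tnp1 0.22. A promoter window of each of this pair and of Igfbp3 is shown because these are the 3 members past 2-fold. Igfbp2 has 2 windows, of which the upstream one is shown. Each runs from 250 bases before to 50 after the start site, 5′ to 3′ on the gene's strand, from RefSeq on GRCm38.p6, a build whose coordinates are not those of the probes. The windows are chr1:72824230-72824529 (plus strand) for Igfbp2, chr1:72874816-72875115 (minus strand) for Igfbp5 and chr11:7213874-7214173 (minus strand) for Igfbp3. Capitals mark matches to CCGCCC on either strand (the GC box of Sp factors), TATAAA on either strand, and CANNTG (the E-box, its own reverse complement).
Igfbp2: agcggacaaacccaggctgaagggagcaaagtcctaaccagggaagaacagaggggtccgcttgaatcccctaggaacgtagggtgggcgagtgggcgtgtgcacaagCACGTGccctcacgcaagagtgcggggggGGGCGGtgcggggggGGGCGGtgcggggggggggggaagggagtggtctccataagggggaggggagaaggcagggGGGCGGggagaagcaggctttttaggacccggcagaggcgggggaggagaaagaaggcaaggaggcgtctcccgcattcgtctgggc
Igfbp5: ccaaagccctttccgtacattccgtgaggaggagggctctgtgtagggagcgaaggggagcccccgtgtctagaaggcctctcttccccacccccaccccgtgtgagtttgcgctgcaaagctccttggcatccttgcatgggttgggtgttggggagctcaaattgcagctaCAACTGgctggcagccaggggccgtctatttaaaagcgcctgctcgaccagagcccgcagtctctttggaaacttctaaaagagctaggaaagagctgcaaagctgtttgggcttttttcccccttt
Igfbp3: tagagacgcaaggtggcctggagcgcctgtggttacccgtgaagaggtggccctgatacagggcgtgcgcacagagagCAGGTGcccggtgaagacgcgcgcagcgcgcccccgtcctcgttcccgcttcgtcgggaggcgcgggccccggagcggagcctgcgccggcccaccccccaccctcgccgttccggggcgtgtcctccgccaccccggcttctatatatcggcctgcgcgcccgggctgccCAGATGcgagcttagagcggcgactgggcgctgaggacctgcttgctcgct
The Igfbp2 window shown had 67% G and C and held 3 matches to CCGCCC and 1 E-box. Its other window, chr1:72825137-72825436, differed, with 57.3%, 0 matches to CCGCCC and 2 E-boxes. The Igfbp5 window had 56.3% and 1 E-box, and the Igfbp3 window 71.7% and 2 E-boxes. The median over 32851 such windows of 27025 genes was 52.7%, and 35.7% of these windows held CCGCCC, 72.3% CANNTG and 13.6% TATAAA. None of these 4 windows held TATAAA, nor was there a match to TGACGTCA, the cAMP response element found in 1.79% of windows on either strand, or to the CArG box of serum response factor found in 1.63%. Among the 14 windows of the 10 members, TATAAA occurred in those of Igfbp4 and Igfbp6 and a CArG box in 1 of Igf2. A match is a run of letters and no evidence of binding.

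Igfbp3 encodes the main carrier of IGFs in blood. A_52_P253179 (BC058261, chr11:7158599-7158658, minus strand) read 12526 in KO and 8658 in WT tissue and 14670 and 8628 in culture. Its log2 ratios were 0.53 and 0.77, so that KO was the brighter sample on both arrays, except with spike centring in tissue (-0.31). A_51_P228472 (NM_008343, chr11:7160474-7161483) read 242 and 276 in tissue and 622 and 306 in culture. This second probe had -0.19 in tissue and 1.02 in culture, 2.03-fold higher in KO. The culture value lies at the edge of the 2-fold threshold and was 0.65 without loess. The coordinates of A_51_P228472 span 1010 bases, where most probes span 60. Both Igfbp3 probes were brighter in KO culture. They disagreed in sign in tissue, except without loess, where both were above 0 (1.15 and 0.02), and with spike centring, where both were below it (-0.31 and -1.03).

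Igfbp4, which is cut by the protease PAPP-A, was dimmer in KO culture on both probes. A_52_P257502 (NM_010517, chr11:99161059-99161118) read 2082 in KO and 2130 in WT tissue and 1489 and 2809 in culture. Its log2 ratio was -0.03 in tissue and -0.92 in culture, 1.89-fold lower, and -1.34 without loess. A_51_P398971 (chr11:99157316-99157375) read 555 and 622 in tissue and 727 and 1044 in culture, log2 ratios of -0.17 and -0.52. In culture all alternatives kept both below 0, and in tissue both were above it without loess (0.50 and 0.22).

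Igfbp6 encodes a binding protein that prefers IGF-2. A_51_P374571 (NM_008344, chr15:102135489-102135549) read 836 in KO and 1069 in WT tissue and 1151 and 1341 in culture. Its log2 ratios were -0.36 and -0.22, with the tissue value at 0.10 without loess. Igfbp7, a matrix protein that binds IGFs weakly, had 1 probe, A_51_P472292 (NM_008048, chr5:77280659-77280718). It read 72004 in KO and 46576 in WT culture, 1.55-fold higher in KO at a log2 ratio of 0.63, with a range of 0.15 to 0.67 over the alternatives. Its only tissue spot was flagged as not uniform and left out, and with that spot kept in the fit the value was -0.23.

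Since KO was in Cy5 on one array and in Cy3 on the other, a probe with opposite signs of KO over WT had the same dye brighter on both. This held for 9 of the 16 member probes with values on both arrays, among them Igf2 on both probes, Igf1 on all 3, and Igfbp2. Over all 26622 probes kept on both arrays it held for 50.9%, and Pearson's r between the Cy5 over Cy3 ratios of the arrays was 0.016 across probes, which share arrays and are not replicates. The 7 probes with the same sign of KO over WT were both of Igf1r, both of Igfbp4, Igfbp3 A_52_P253179, Igfbp5 A_52_P281702 and Igfbp6. Among them Igfbp5 A_52_P281702 and Igfbp4 A_52_P257502 each had -0.03 in tissue, smaller in size than the pooled spot SD. These counts hold for the loess scaling, and without loess 8 of the 16 tissue signs and 3 of the 17 culture signs were turned, those of Igfbp5 A_52_P281702 and Igfbp3 A_51_P228472 in tissue among them. For a single probe, dye bias and genotype cannot be told apart within an array.

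**Figure D3:**
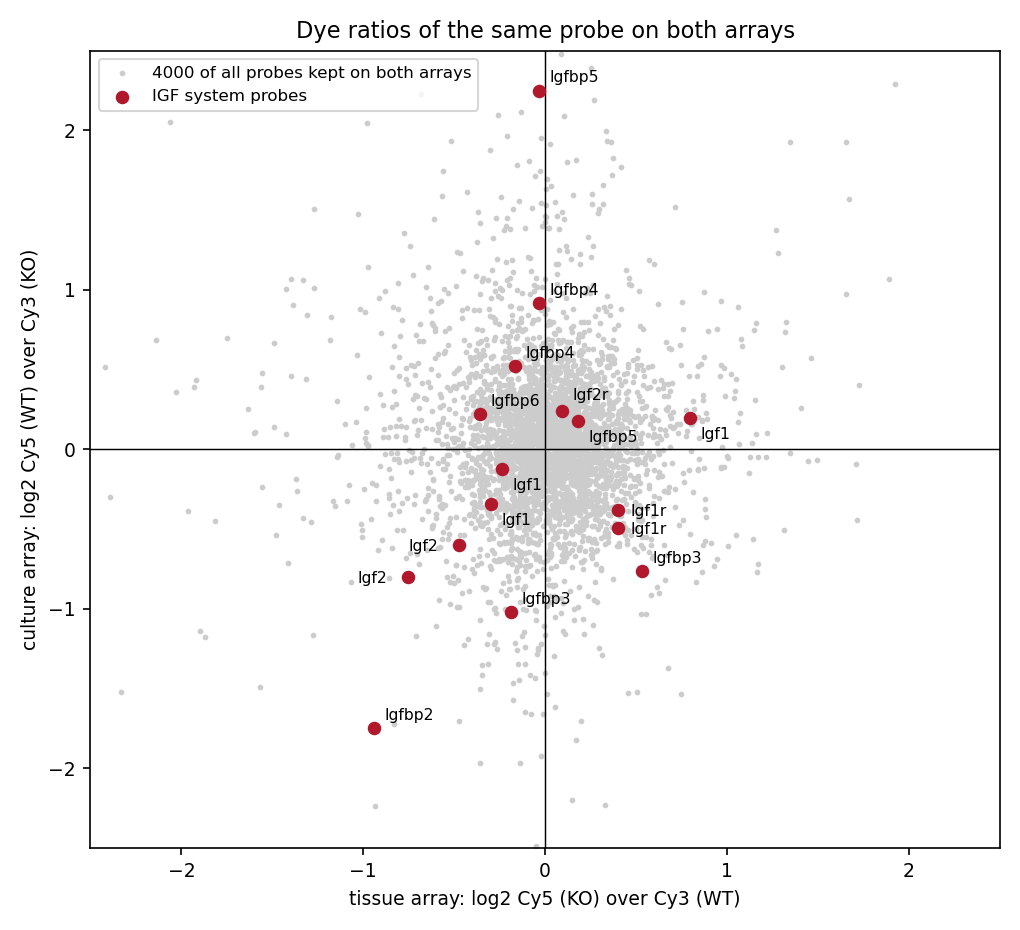
Log2 ratio of Cy5 over Cy3 in tissue (x axis, KO over WT) against culture (y axis, WT over KO), with the 16 member probes in red over 4000 of all probes kept on both arrays in grey, of which 21 lie beyond the axes. Probes at lower left and upper right, such as Igfbp2 and Igf2, have the same dye brighter on both arrays. Those at upper left and lower right, such as Igfbp6 and Igf1r, have the same genotype brighter. Igfbp5 A_52_P281702 lies almost on the vertical line, at -0.03 in tissue.

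By gene means, 14275 genes had values on both arrays. The 3 whose pair of log2 ratios lay nearest to that of Igfbp2 by Euclidean distance were Spink2 (-0.83 and 1.72, distance 0.12), Ankrd1 (-0.98 and 1.88, distance 0.14) and Dapk2 (-0.85 and 1.61, distance 0.17). Igfbp2 was the member taken for this because all of its probes passed 2-fold on an array. The likeness rests on 2 arrays and on the loess scaling. Over the alternatives the tissue value of Igfbp2 ran from -1.79 to -0.07, a wider span than these distances.

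Other genes that meet the IGF system were counted as gene means over kept probes. Their lists were chosen with earlier results of these data known, so the counts are descriptive only. Of all 15616 kept genes in tissue 0.8% were higher in KO by 2-fold or more and 2.44% lower, and of 15115 in culture 2.49% were higher and 4.17% lower. The median log2 ratio of all kept genes was 0.00 on both arrays. Among 10 further binding and carrier proteins, which include the CCN family of matrix proteins with an IGF binding domain, 8 were kept on each array. In culture 5 were higher and 0 lower, with a median of 1.82, and in tissue 0 were higher and 1 lower, with a median of -0.25. All 5 CCN genes on this list made up that count in culture, and 3 of 6 kept genes were higher when spots with outlying backgrounds were left out too. In tissue the counts ran from 0 to 1 higher and 0 to 5 lower over the alternatives. Ccn2, the connective tissue growth factor, read 15180 in KO and 1479 in WT culture (3.36) and 671 and 1367 in tissue (-1.03). Ccn5 read 17413 and 2869 in culture (2.60), and in tissue it was not well above background in WT. Ccn3 read 29944 and 5388 in culture (2.47), Ccn4 3033 and 654 (2.21) and Ccn1 11298 and 4213 (1.42). Their lowest culture value over the alternatives was 1.02, for Ccn1 without loess. In tissue the value of Ccn2 was -0.31 with outlier spots in the background fit. Igfbp1, the remaining classical binding protein, had 0.61 in tissue, where WT was not well above background (at least 1.53-fold higher in KO). That value was 0.03 with outlier spots in the background fit, well past 2-fold with the scanner software's ratio and -0.23 with spike centring, so no size can be given. It was not well above background in either culture sample. Igfals, the subunit that joins circulating IGF complexes, had -0.33 in tissue and was at least 1.44-fold lower in KO culture. Without loess its culture log2 ratio was -0.36, which is smaller than that bound. Of the smooth muscle markers 6 of 8 were also higher in KO culture, and their part in the CCN values was not tested.

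**Figure D4:**
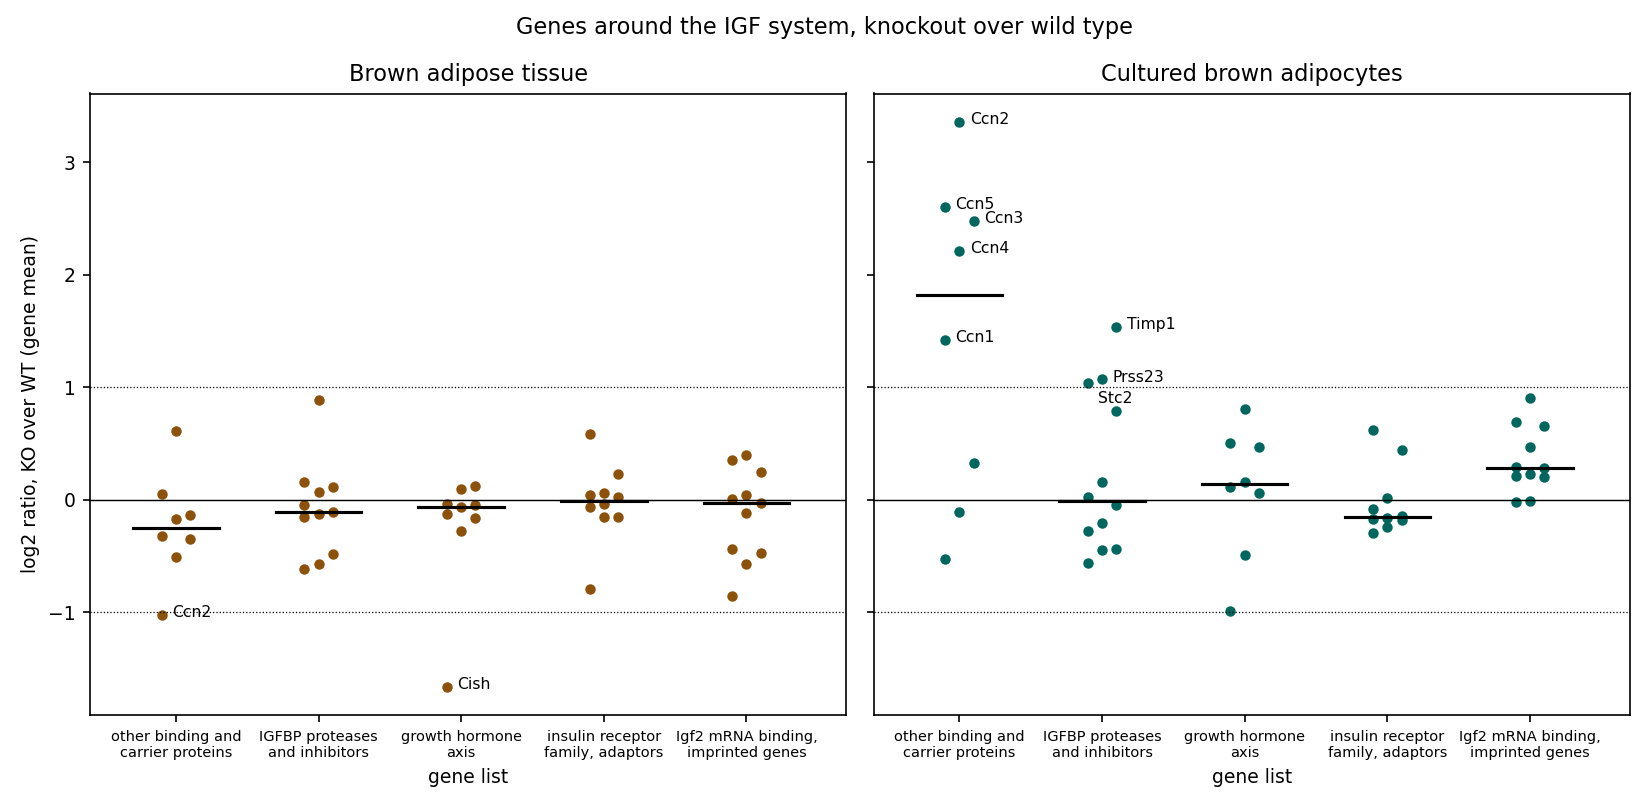
Log2 ratio of KO over WT (y axis, gene mean) of each kept gene in 5 lists around the IGF system (x axis) in tissue (left) and culture (right); black bars are list medians, dotted lines mark 2-fold, and genes past 2-fold are named. In culture the CCN genes stand between 1.42 and 3.36, while the lists of the growth hormone axis, the insulin receptor family and imprinted genes have no gene past 2-fold there.

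Of 13 proteases that cut binding proteins and their inhibitors, 11 were kept in tissue with 0 past 2-fold (median -0.11) and 12 in culture with 3 higher and 0 lower (median -0.01). Timp1, an inhibitor of metalloproteases, had 1.54 in culture over 3 probes and -0.13 in tissue. Prss23, a serine protease, had 1.07 in culture, where its brightest probe read 47951 in KO and 23958 in WT, and 0.11 in tissue. Stc2, a stanniocalcin that inhibits PAPP-A, read 246 in KO and 120 in WT culture (1.04). Without loess Prss23 and Stc2 were under 2-fold, at 0.65 and 0.87. The largest values in tissue were those of Pappa, the gene of PAPP-A, at 0.89, and Htra1, at -0.62. Neither size is firm. Pappa had 1.57 with the scanner software's ratio, 1.00 without loess and 0.22 with outlier spots in the background fit, and Htra1 had -0.02 without loess. Spike centring put 4 genes of this list lower in tissue. Pappa was also at 0.79 in culture and Htra1 at -0.45.

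All 9 genes of the growth hormone axis were kept in tissue, and 1 was lower and 0 higher (median -0.07). Cish, a feedback inhibitor induced through STAT5, read 2802 in KO and 8878 in WT tissue (-1.66), and 971 and 700 in culture (0.47). Its tissue value was past 2-fold under all alternatives. In culture none of 8 kept genes passed 2-fold (median 0.14), and the largest values were Stat5a at -0.99 and Socs2 at 0.81. Stat5a lies at the edge of the threshold and had -1.42 without loess. None of 10 kept genes of the insulin receptor family and its adaptors passed 2-fold on either array (medians -0.01 and -0.15). In tissue 1 was higher with the scanner software's ratio (Irs4 at 1.00) and 2 were lower with spike centring. Grb14, an inhibitor of the insulin receptor, had -0.80 in tissue (-0.27 with outlier spots in the background fit) and 0.44 in culture (0.02 without loess), Irs4 had 0.58 in tissue (0.06 with outlier spots in the background fit), and Grb10 had 0.62 in culture. None of 11 kept genes among the Igf2 mRNA binding proteins and imprinted genes passed 2-fold on either array (medians -0.03 and 0.28), except 4 lower in tissue with spike centring and 1 higher in culture with the scanner software's ratio, Igf2bp2 at 1.04. H19, the neighbour of Igf2, read 17097 in KO and 26706 in WT tissue on A_51_P142196, and 36744 and 28128 in culture. Its gene means of -0.86 and 0.65 had the signs of the Igf2 means (-0.62 and 0.70) on each array. Without loess they were -0.20 for H19 and 0.10 for Igf2 in tissue, where the shared sign was lost, and 0.21 and 0.28 in culture. Mest, an imprinted gene of adipose growth, had -0.57 in tissue (0.13 without loess), and Igf2bp2 and Igf2bp1 had 0.91 and 0.69 in culture.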

How the data were processed

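RNA was extracted with Trizol and amplified with an Agilent low input kit, per the labels' protocols. Per the file headers, Feature Extraction 9.5.1.1 produced the deposited spot intensity values and log10 ratios. The authors' deposited value table also gives log10 ratios. Compared with the scanner files it held KO over WT on both arrays, to within 0.017 log2 units. It lacked values for 7623 gene spots in tissue and 6968 in culture, and its log2 medians were 0.09 and 0.02. Spike shift, saturation and outlier flags were also read.

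Spots with outlier flags (1215 in tissue, 203 in culture) were left out. Mean signals were corrected with limma 3.58.1 in R 4.3.3 by normexp (saddle, offset 50) and normalized by loess with weight 0 for the 1639 controls. Spots of a probe were averaged. Levels were scaled by Aquantile. Of the gene spots, 74.1% (KO) and 63.1% (WT) were well above background in tissue and 68.1% and 70.1% in culture. RefSeq of GRCm38.p6 named 32719 probes and left 8455 unnamed. "At least N-fold" divides the bright level by the dim level or, if that is larger, by the lowest signal well above background. Such bounds hold for the loess scaling alone, and some alternatives gave smaller values. No genome build of the probe coordinates is named in the sources used here.

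There were no replicate arrays and no tests. The main steps were tested on simulated data with a smooth dye bias. Probes well above background in both channels were changed there by a known fold. That simulation covered neither changes in dim probes nor the alternatives in processing. Members and lists were chosen with earlier results of these data known. Named were every member probe, of each further list up to 4 genes past 2-fold or else the 2 largest, up to 2 genes of each marker list, the 3 nearest genes of a member past 2-fold on all its probes, and Prkg1. Xist, Eif2s3y, Lrrn4, Tpm2, Des, Ccn1, Igfbp1, Igfals and the other array's value of a named gene were added after their values were seen. The 10 alternatives were another offset, the software's ratio, the deposited table, no loess, 2 dim-probe filters, spike centring and 3 treatments of outlier spots, of which 2 were chosen after seeing the data.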

Additional observations from a re-analysis of the deposited data

Results flagged for a closer look

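Igfbp2 had opposite signs on the arrays, with a log2 ratio of KO over WT of -0.94 in tissue and 1.75 in culture. Igfbp3 A_51_P228472 did so too, with -0.19 in tissue and 1.02 in culture. Each group is 1 array, and the difference between tissue and culture was not tested. On both probes the same dye was the brighter one on both arrays, but without loess the tissue value of the Igfbp3 probe was 0.02, and the opposite signs were lost.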

How the results depend on the processing

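The counts of member probes past 2-fold moved as follows. In tissue, 0 higher became 1 with the scanner software's ratio, 1 with the deposited table and 2 without loess. In tissue, 0 lower became 1 with offset 0, 1 with the software's ratio, 1 with the deposited table and 8 with spike centring. In culture, 2 higher became 1 without loess and 1 with spike centring, and 1 lower became 2 without loess and 2 with spike centring. The other 29 counts stayed within 1.5 times, the cause of the moves was not tested, and spike centring shifts every ratio by one amount, 0.84 in tissue and 0.22 in culture. Of the single-probe ratios under the alternatives, 120 moved by more than the SD between spots and 208 did not. Of the tissue probes 8 of 16 changed sign without loess, 6 with spike centring, and at most 1 under each other alternative. In culture 3 of 17 changed sign without loess, 1 with spike centring and 0 under the others. No paired analysis was possible because each comparison has 1 array.

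The limits are those of 1 array per comparison: the spread between mice or cultures is unknown, and dye and genotype are tied within an array. Sex-linked transcripts also differed between KO and WT on both arrays, and this difference cannot be told apart from genotype. Dim probes such as Igfbp5 A_51_P204153 in culture give only a bound, under the loess scaling.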
